A study of Mus musculus with 4 samples.

Results

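*Msln* and *Gabrp* were examined in ureter explants of newborn mice that lacked functional *Pparg* in the ureteric epithelium and in control explants. They are 2 of the 29924 gene names on the array and were selected on these data, for being among the largest increases in *Pparg-cKO* ureters, which is read here as the genotype difference with DMSO. Each was measured by 1 probe of 39429, printed in 4 spots, and both probes passed the filter on dim signals. Because the DMSO pools chose both genes, values that use these pools are given as a description without a test. The genotype difference in the pools cultured with purmorphamine is given with a test, but the choice named no treatment and may have used these pools. The SE of this test is estimated over all 4 groups, the DMSO pools included. The test is therefore not fully independent of the choice in either case.

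*Msln* encodes the precursor of mesothelin, a surface protein held to the membrane by a lipid (GPI) anchor. The protease furin cuts the precursor into a secreted part, megakaryocyte potentiating factor, and mesothelin itself, which binds the mucin MUC16. Mesothelin is best known as a product of mesothelial cells that is abundant in several carcinomas. *Gabrp* encodes the pi subunit of the GABA-A receptor, a chloride channel that is opened by the transmitter GABA. Unlike most subunits it is known mainly from epithelia outside the brain, such as that of the uterus. PPARG is a nuclear receptor that pairs with RXR on DNA and is required for the differentiation of superficial urothelial cells.

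Ureters of the NMRI stock were explanted at postnatal day 0 and cultured for 8 days with the solvent DMSO or with 2 µM purmorphamine, an agonist of SHH signaling. The control genotype was labelled Pparg (fl/?), and per the methods these were littermates without cre. The mutant was Pax2-cre/+; Pparg (fl/fl), in which Pax2-cre recombines in the nephric duct, the ureteric epithelium and the collecting duct system. RNA was pooled by sex, which gave 4 groups of 2 pools, and a DMSO pool was hybridized together with the purmorphamine pool of the same genotype and sex, on 4 arrays in all. Replicate 1 was male with DMSO in AlexaFluor555, and replicate 2 was female with the dyes exchanged, so that sex and dye cannot be told apart among pools of one treatment. For genotypes, the p-values below measure the spread between the pools of a group, which differ in sex and dye, over all 4 groups. For purmorphamine they measure the spread of the log ratio between arrays of a genotype, which differ in sex and dye order.

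Between 66.3% and 70.5% of spots were well above background in the 8 channels, and 0 were saturated. The *Pparg* level does not check the genotype, since the paper found a *Pparg* transcript without the deleted exons in fetal mutant ureters. The place of the *Pparg* probe in the transcript was not examined. Its level was 14.79 to 15.31 in control pools and 15.55 to 16.10 in *Pparg-cKO* pools on the log2 scale. *Shh*, the ligand gene of the pathway that purmorphamine activates, was at 12.41 to 12.81 in control pools and at 9.46 to 10.82 in *Pparg-cKO* pools, so that the groups did not overlap. In such pools, a change in the number of cells of a type and a change of RNA per cell cannot be told apart.

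The stretches of the array probes that follow are shown because all values of both genes rest on them. Each is the 3′ part of a probe of 60 bases, positions 31 to 60, and capitals mark the polyadenylation signal AATAAA.
*Msln* probe: ggactcttgaactcAATAAAcagtggcata
*Gabrp* probe: taaggggaggggctaggggaggggaagtgt
In the mm9 coordinates of the file headers, the *Msln* probe is at chr17:25885569-25885628 and the *Gabrp* probe at chr11:33450919-33450978, both on the minus strand. They begin at base 2044 of the *Msln* and base 3082 of the *Gabrp* transcript. The longest run of bases that the *Msln* probe shares with a probe of another gene is 18, with 1 of the 2 *Ttll7* probes. That *Ttll7* probe, looked up after its values were seen, stayed between 6.02 and 6.15 on the log2 scale and was well above background in 0 of 8 pools. The other *Ttll7* probe was well above background in 8 of 8 pools, at 8.87 to 9.05 in control and 9.07 to 9.38 in *Pparg-cKO* pools. A part of *Ttll7* RNA in the *Msln* signal was not tested. The *Gabrp* probe shares at most 14 bases with a probe of another gene, and at most 10 with those of other GABA-A receptor subunits.

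In control ureters cultured with DMSO, the log2 level of *Msln* reached 7.99 (male pool) and 8.10 (female pool), or 8.04 ± 0.07 (SD, n = 2). The mutant pools with DMSO had 13.86 (male) and 13.37 (female), or 13.61 ± 0.35 (SD, n = 2). With purmorphamine it was 7.87 and 7.12 in control pools (7.50 ± 0.52, SD, n = 2), male first, and 13.74 and 13.04 in *Pparg-cKO* pools (13.39 ± 0.50, SD, n = 2). The female control pool with purmorphamine was the lowest of the 8, and the lowest *Pparg-cKO* pool lay 4.94 above the highest control pool on the log2 scale, a distance of 30.7-fold. The 4 spots of the probe varied with an SD of 0.02 to 0.11 on the log2 scale of the processed signal, less than the 2 pools of each *Pparg-cKO* group did.

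The log2 level of *Gabrp* in control ureters with DMSO reached 7.04 (male pool) and 7.11 (female pool), or 7.08 ± 0.05 (SD, n = 2). The mutant pools with DMSO had 11.77 (male) and 11.14 (female), or 11.45 ± 0.44 (SD, n = 2). With purmorphamine it was 6.67 and 6.61 in control pools (6.64 ± 0.04, SD, n = 2), male first, and 11.30 and 10.59 in *Pparg-cKO* pools (10.94 ± 0.50, SD, n = 2). The genotypes were separated by 3.47 on the log2 scale between the nearest pools, or 11.1-fold. In control pools *Gabrp* was close to the background: the spots read 50.7 to 170.2 units before correction against a local background of 21.5 to 75.8. All 32 spot readings of *Gabrp* and all 32 of *Msln* were nevertheless well above background by the criterion of the scanner software.

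**Figure D1:**
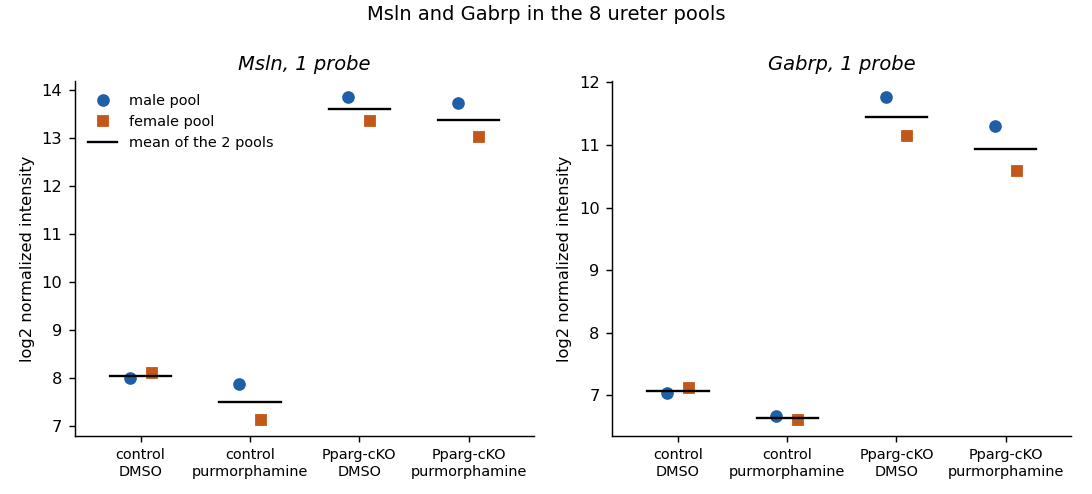
The log2 normalized intensity of *Msln* (left) and *Gabrp* (right) in each of the 8 pools, with circles for male pools, squares for female pools and lines for the mean of the 2 pools of a group. All 4 *Pparg-cKO* pools lie above all 4 control pools, by at least 4.94 for *Msln* and 3.47 for *Gabrp*; the axes do not start at 0, and levels of the 2 probes cannot be set against each other.

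The order of the group means was the same for both genes: *Pparg-cKO* with DMSO, *Pparg-cKO* with purmorphamine, control with DMSO and control with purmorphamine. The pools of the upper groups, *Pparg-cKO* with and without purmorphamine, overlapped for both genes. The control groups did not overlap: the nearest pools were 7.99 and 7.87 for *Msln* and 7.04 and 6.67 for *Gabrp*. With so few pools per group, such a separation can also arise by chance. The share of all genes whose control groups separated was not computed, so no purmorphamine response is read from it. In *Pparg-cKO* the male pool exceeded the female pool with either treatment, for both genes.

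With DMSO, the comparison by which both genes were selected, *Msln* was higher in *Pparg-cKO* by 5.57 on the log2 scale (SE 0.32) and *Gabrp* by 4.38 (SE 0.26). The male pair differed by 5.87 and the female pair by 5.27 for *Msln*, and by 4.72 and 4.03 for *Gabrp*. Of 20515 genes tested, 387 (1.89%) were called higher and 353 (1.72%) lower in *Pparg-cKO* with DMSO by limma at an adjusted p of 0.05, and since the rule used this contrast nothing is read from it for the members.

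With purmorphamine, the question was whether the genotype difference was also present in pools in which SHH signaling was activated. *Msln* was higher in *Pparg-cKO* by 5.89 on the log2 scale (SE 0.32, 95% confidence interval 5.14 to 6.65, limma adjusted p = 0.00135), a fold of 59.5. *Gabrp* was higher by 4.30 (SE 0.26, 95% confidence interval 3.67 to 4.93, limma adjusted p = 0.00196), a fold of 19.7. In this comparison 230 of 20515 genes (1.12%) were called higher and 345 (1.68%) lower. Whether the choice of both genes also drew on these pools is not known, and these p-values are no independent support if it did. Their SE also draws on the DMSO pools that chose both genes, so they are not fully independent in either case. For *Msln* the male and the female pair differed by nearly the same amount, 5.88 and 5.91. For *Gabrp* the male pair differed by 4.63 and the female pair by 3.97. The *Gabrp* call was lost without either control array and the *Msln* call without the female one: without the male control array the limma adjusted p was 0.048 for *Msln* and 0.0744 for *Gabrp*, and without the female control array 0.058 and 0.0848, with log2 differences of 5.52 to 6.27 and 4.27 to 4.33.

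**Figure D2:**
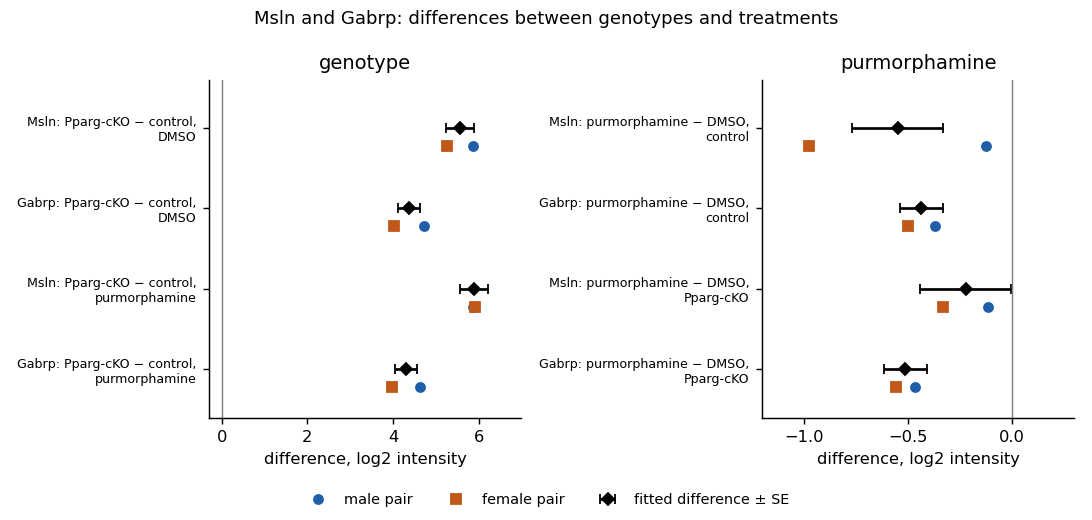
Differences in log2 intensity of *Msln* and *Gabrp* between the genotypes (left) and between purmorphamine and DMSO (right), with diamonds for the fitted difference and its SE and smaller symbols for the male and the female pair. The genotype differences lie between 3.97 and 5.91 in every pair, whereas the purmorphamine differences lie between -0.97 and -0.11.

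The methods of the study used another criterion, an intensity above 100 in the brighter pool and a change of 1.5-fold or more that had one sign in both sexes. Among 15311 genes bright enough with purmorphamine, 466 (3.04%) met it as higher in *Pparg-cKO*, and both genes were among them. On that scale, which has no offset, *Msln* was higher by 85.4-fold between the male pools and by 113-fold between the female pools. Both control pools with purmorphamine were set to the floor of 15 units for *Gabrp*, and the ratios to it were 62.6 (male) and 37.2 (female). Folds of low signals thus depend on the background correction: from processed signals, the fitted difference rose from 4.30 to 5.83 for *Gabrp* and from 5.89 to 6.57 for *Msln*.

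Purmorphamine left most of the signal of both genes in *Pparg-cKO* ureters. Because the DMSO pools enter these values, they are a description. In *Pparg-cKO*, the log2 level of *Msln* differed from DMSO by -0.11 (male array) and -0.33 (female array), and the fitted value of -0.22 (SE 0.22) leaves 85.7% of the DMSO level. That of *Gabrp* differed by -0.47 and -0.56, and the fitted value of -0.51 (SE 0.10) leaves 70.1%. All 4 differences were negative, and the fitted value of *Msln* was about as large as its SE.

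In control ureters, *Msln* differed by -0.12 (male array) and -0.97 (female array), with a fitted -0.55 (SE 0.22). The female value was the largest of the 4 purmorphamine differences of *Msln*, and without that array the value was -0.12. *Gabrp* differed by -0.37 (male array) and -0.50 (female array), with a fitted -0.43 (SE 0.10). The processed signals gave -1.03 for *Gabrp* in control ureters. Neither gene met the criterion of the methods for a purmorphamine response in either genotype. In control ureters *Gabrp* was lower by 1.64-fold and 1.71-fold, past 1.5-fold in both sexes, but its intensity stayed under 100 and both purmorphamine pools were set to the floor. *Msln* was lower there by 1.14-fold and 2.69-fold, also at an intensity under 100. In *Pparg-cKO*, *Gabrp* was lower by 1.36-fold and 1.49-fold and *Msln* by 1.08-fold and 1.26-fold. For scale, limma called 56 genes (0.273%) higher and 181 (0.882%) lower with purmorphamine in control ureters, and 362 (1.76%) higher and 548 (2.67%) lower in *Pparg-cKO*.

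GABA-A receptors are built from several subunits, so 15 other subunit genes were examined as a list. All 15 had probes, and 10 passed the filter; *Gabra5*, *Gabra6*, *Gabrq* and *Gabrr3* were well above background in 0 of 8 channels and *Gabrd* in 1. Of the 10 tested, limma called 0 between the genotypes with either treatment (at an unadjusted p under 0.05, 0 higher and 2 lower with DMSO, and 1 higher and 1 lower with purmorphamine). Among all 20515 genes, 1649 were higher and 1584 lower at that unadjusted p with DMSO, and 1371 and 1822 with purmorphamine. The median difference of the list was -0.14 with DMSO and -0.06 with purmorphamine, against 0.00 over all genes. The genes tested, *Gabra2*, *Gabra3*, *Gabra4*, *Gabrb1*, *Gabrb2*, *Gabre*, *Gabrg1*, *Gabrg3*, *Gabrr1* and *Gabrr2*, lay between -0.81 and 0.19 with DMSO and between -0.66 and 0.58 with purmorphamine. The lowest with either treatment was *Gabrb1*, a beta subunit gene, at -0.81 and -0.66 (limma adjusted p = 0.139 and 0.222).

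**Figure D3:**
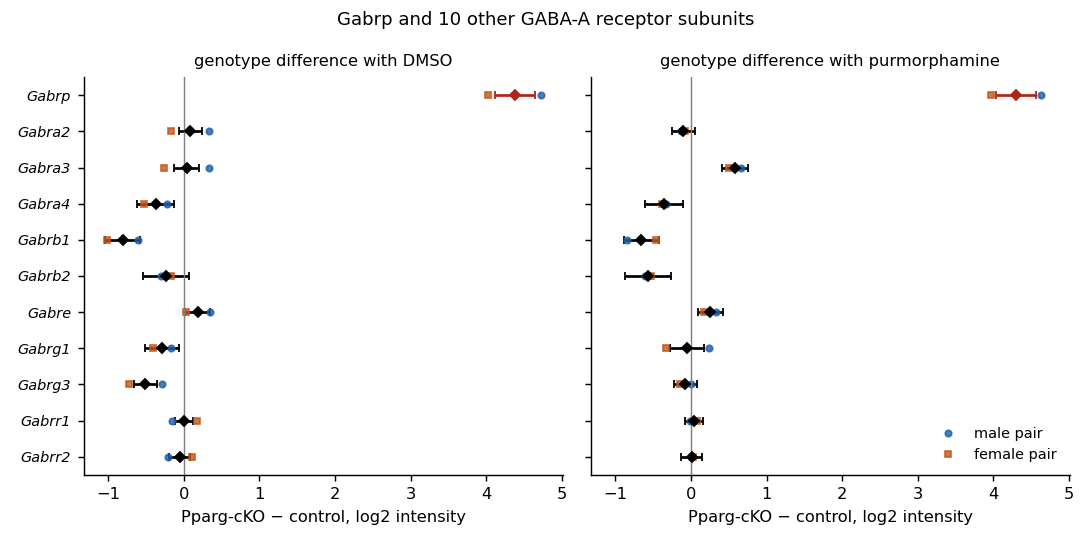
Genotype difference in log2 intensity of *Gabrp* and 10 other GABA-A receptor subunit genes, with DMSO (left) and with purmorphamine (right), shown as diamonds with the SE and as circles and squares for the male and female pairs. *Gabrp* lies at 4.38 and 4.30, and the others lie between -0.81 and 0.58.

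The purmorphamine responses of 2 other subunits exceeded the threshold and were opposite in sign to the *Gabrp* values. *Gabrg3*, the gamma 3 subunit gene, rose by 1.25 in control (SE 0.15, limma adjusted p = 0.0473) and by 1.68 in *Pparg-cKO* ureters (SE 0.15, limma adjusted p = 0.0176). *Gabra3*, the alpha 3 subunit gene, rose by 1.21 in *Pparg-cKO* (SE 0.14, limma adjusted p = 0.0241) and had a difference of 0.66 in control ureters (limma adjusted p = 0.109). In all, 1 of the 10 subunits was called higher in control and 2 of the 10 in *Pparg-cKO* ureters, with 0 lower. Of all genes, 0.273% were called higher with purmorphamine in control and 1.76% in *Pparg-cKO* ureters. The *Gabrg3* call in control ureters was lost under 5 of 10 other settings, and both calls in *Pparg-cKO* were lost without the female *Pparg-cKO* array.

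A further list held 12 genes for GABA synthesis, transport and breakdown, the GABA-B receptor and the scaffold gephyrin. *Gad1*, which encodes a GABA-making enzyme, and *Gabbr2* were well above background in 0 of 8 channels. Of the 10 tested, limma called 0 in the comparison of genotypes with either treatment and 0 for purmorphamine in either genotype. At an unadjusted p under 0.05, the counts ran from 0 to 5 over the 4 comparisons. Among all 20515 genes, purmorphamine had 1995 higher and 2011 lower at that unadjusted p in control ureters, and 2011 and 2528 in *Pparg-cKO*. Their genotype differences lay between -0.35 and 0.59.

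For *Msln*, the list held its relatives *Mslnl*, *Otoa* and *Strc* and genes for processing and anchoring the precursor. *Otoa* and *Strc*, known from the inner ear, were well above background in 0 of 8 channels, and *Muc16*, the gene of the binding partner, was not analysed here. *Mslnl* was well above background in 7 of 8 channels and had genotype differences of 0.25 with DMSO and 0.02 with purmorphamine (limma adjusted p = 0.581 and 0.978). *Furin*, which encodes the protease that cuts the precursor, had -0.05 and -0.11. The other genes tested, *Pigk*, *Pigs*, *Pigt*, *Pigu* and *Gpaa1* of the enzyme complex that attaches GPI anchors, lay between -0.16 and 0.17. Of the 7 tested, limma called 0 in each of the 4 comparisons, with 0 at an unadjusted p under 0.05 between the genotypes and up to 2 for purmorphamine.

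Because the GABA-A receptor conducts chloride, 21 genes of epithelial chloride transport were listed, of which 16 were tested. With DMSO 3 were called higher and 2 lower in *Pparg-cKO*, and with purmorphamine 1 higher and 1 lower, with median differences of 0.46 and 0.23. Over all genes, 1.89% were called higher and 1.72% lower with DMSO, and 1.12% and 1.68% with purmorphamine. *Clic3*, a chloride intracellular channel gene, was higher by 3.51 with DMSO (SE 0.19, limma adjusted p = 0.00101) and with purmorphamine by 3.15 between male and 2.85 between female pools (limma adjusted p = 0.00233). *Clic5* of the same family was higher by 2.43 with DMSO (SE 0.25, limma adjusted p = 0.00634) and had 0.98 with purmorphamine (limma adjusted p = 0.11). *Clca1*, a regulator of chloride conductance in secretory epithelia, was higher by 2.69 with DMSO (SE 0.39, limma adjusted p = 0.0177). *Slc12a7*, a potassium chloride cotransporter gene, was lower, at -0.94 and -1.06 in the pairs with DMSO and at a fitted -0.87 with purmorphamine (limma adjusted p = 0.00716 and 0.0166). *Ano1*, a calcium-activated chloride channel gene, was lower with DMSO, at -0.67 (limma adjusted p = 0.0399), a call lost under 7 of 9 other settings. Without the female control array each of these calls was lost.

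The response of *Clca1* to purmorphamine was unlike that of *Gabrp*. *Clca1* was lower with purmorphamine, at -4.67 in control and -5.38 in *Pparg-cKO* ureters (SE 0.19 in both, limma adjusted p = 0.0166 and 0.0115), against fitted *Gabrp* differences of -0.43 and -0.51. It was the 1 gene of the 16 called for purmorphamine in each genotype, and its call in control ureters was lost without either control array. Limma called 0.882% of all genes lower with purmorphamine in control and 2.67% in *Pparg-cKO* ureters. *Cftr*, *Best1*, *Slc26a3* and *Slc26a9* were well above background in 0 of 8 channels.

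Mesothelin is a marker of mesothelium, so other markers of the mesothelial lining were examined. Of 9 listed, 8 were tested, and *Lrrn4* was well above background in 0 of 8 channels. In *Pparg-cKO*, 0 were called higher and 2 lower with DMSO, and 0 higher and 1 lower with purmorphamine (limma; 1 higher at an unadjusted p under 0.05 with either treatment). Over all genes, 1.89% were called higher and 1.72% lower with DMSO, and 1.12% and 1.68% with purmorphamine. The mesothelial markers called lower were *Upk3b*, at -1.83 and -1.07, and *Upk1b*, at -1.31 with DMSO. Both are uroplakin genes that the list of superficial urothelial markers also holds, and their calls were lost without the female control array. In all, the *Upk3b* call with purmorphamine was lost under 6 of 9 other settings. That of *Upk1b* with DMSO was lost under 4 of 9, whichever array was left out. In *Pparg-cKO*, purmorphamine raised 2 of the 8, *Upk1b* by 1.72 and *Upk3b* by 1.44, and lowered 2. Of all genes, 1.76% were called higher and 2.67% lower there. *Wt1*, a transcription factor gene of mesothelium, had genotype differences of 0.56 with DMSO and -1.04 with purmorphamine (limma adjusted p = 0.725 and 0.404). The lowered ones were *Bnc1* and *Wt1*, with *Wt1* at -2.75 (SE 0.36, limma adjusted p = 0.033), while the *Msln* difference there was -0.22. *Bnc1* was at least 2.48-fold lower with purmorphamine in *Pparg-cKO* (limma adjusted p = 0.0254), since it was not well above background in those pools. The purmorphamine calls of *Bnc1* and *Wt1* were each lost under 2 of 10 other settings. The summed level of the 8 markers was 16.88 to 17.03 in control and 16.60 to 16.71 in *Pparg-cKO* pools with DMSO, and 17.04 to 17.09 against 16.90 with purmorphamine. A large part of this sum is *Krt19*, a keratin gene that urothelium also expresses, with group means of 16.00 to 16.40, so that the sum is no measure of mesothelium alone.

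Markers of genital duct and collecting duct epithelium were examined too, and a few of them were higher in the *Pparg-cKO* pools. Of 6 genital duct markers, 2 were called higher in *Pparg-cKO* with DMSO and 1 with purmorphamine. Over all genes, 1.89% were called higher with DMSO and 1.12% with purmorphamine. *Pax8*, a transcription factor gene of renal and genital epithelia, was higher by 2.25 (SE 0.30, limma adjusted p = 0.0131) and by 2.13 (SE 0.30, limma adjusted p = 0.0224). *Esr1*, the estrogen receptor gene, was higher by 1.18 with DMSO (SE 0.18, limma adjusted p = 0.0213). The sum of the list was 10.97 to 11.05 in control and 12.24 to 12.57 in *Pparg-cKO* pools with DMSO, and 10.82 to 10.93 against 11.51 to 12.04 with purmorphamine. Of 6 collecting duct markers, 1 was called with either treatment: *Fxyd4*, a regulator of the sodium pump, was higher by 2.58 (SE 0.44, limma adjusted p = 0.0315) and 3.23 (SE 0.44, limma adjusted p = 0.0205). *Aqp2*, the water channel gene that defines principal cells, had -0.10 and -0.16 (limma adjusted p = 0.684 and 0.451). The other collecting duct markers were not called, and the median difference of the list was -0.05 with DMSO and -0.08 with purmorphamine. The sum of that list, to which *Fxyd4* alone gave a mean of 13.39 with DMSO and 12.85 with purmorphamine in *Pparg-cKO*, was 10.89 to 11.88 in control and 13.43 to 13.54 in *Pparg-cKO* pools with DMSO, and 10.74 to 10.88 against 12.82 to 13.17 with purmorphamine. In *Pparg-cKO*, purmorphamine lowered 1 genital duct marker, *Pax8*, at -0.74 (limma adjusted p = 0.047), a call lost under 7 of 10 other settings, and 0 collecting duct markers. Of all genes, 2.67% were called lower there. Without the female control array the genotype calls of *Pax8*, *Esr1* and *Fxyd4* were lost, and without the male one those of *Pax8* and *Esr1*. With the replicate number as a block the calls of *Esr1* and *Fxyd4* were lost too, and that of *Fxyd4* with DMSO was lost under 6 of 9 other settings. The part of such cells in the *Msln* and *Gabrp* signal was not tested.

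**Figure D4:**
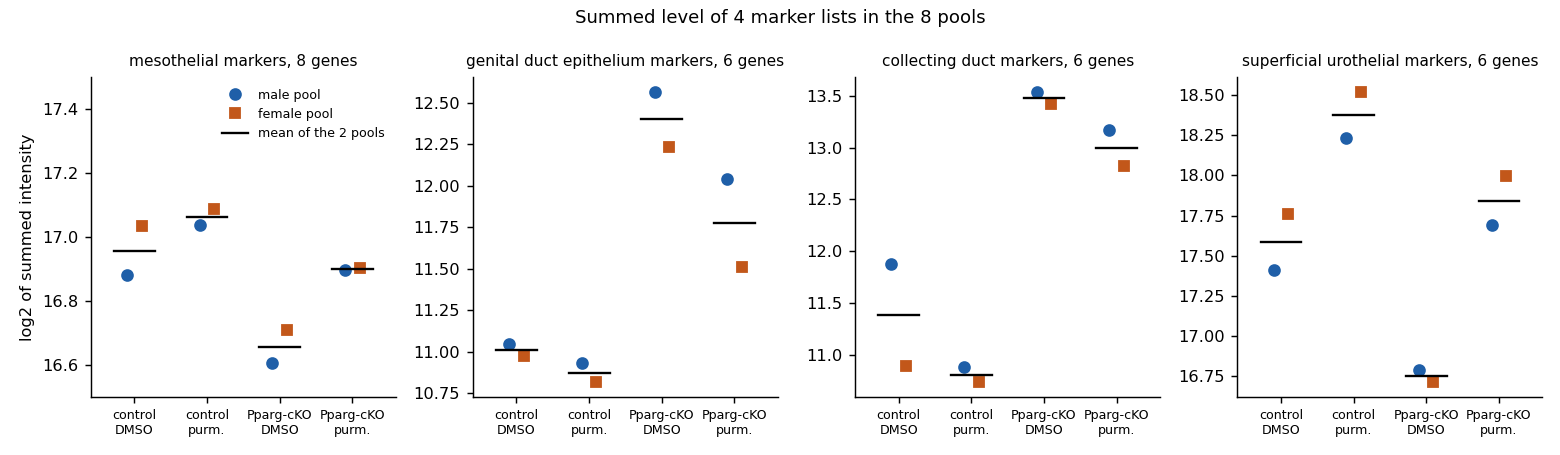
Log2 of the summed intensity of 4 marker lists in the 8 pools, with circles for male and squares for female pools and lines for the mean of the 2 pools; each panel has its own axis, none starting at 0. The sums of genital duct and collecting duct markers are higher in all 4 *Pparg-cKO* pools than in all 4 control pools, and *Fxyd4* makes up most of the collecting duct sum there. The mesothelial sum spans 16.60 to 17.09 and includes *Krt19*, *Upk1b* and *Upk3b*, which urothelium also expresses.

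Markers of urothelial layers moved differently. Of 6 superficial urothelial markers, 4 were called lower in *Pparg-cKO* with DMSO and 2 with purmorphamine, with 0 higher. Over all genes, 1.72% were called lower with DMSO and 1.68% with purmorphamine. *Krt20*, a keratin gene of superficial cells, was at -3.70 and -2.42 in *Pparg-cKO* (SE 0.37, limma adjusted p = 0.00588 and 0.027), and *Upk1a* was at -1.34 with DMSO (SE 0.23, limma adjusted p = 0.0322). Purmorphamine raised 5 of the 6 superficial markers in *Pparg-cKO*, with *Krt20* at 2.43 (SE 0.24, limma adjusted p = 0.0193), while *Msln* and *Gabrp* had -0.22 and -0.51. Of all genes, 1.76% were called higher there. Of 6 basal markers, 0 were called with DMSO and 1, *Trp63*, was lower with purmorphamine, at -1.11 (SE 0.12, limma adjusted p = 0.0123). Purmorphamine lowered 1 basal marker, *Krt15*, in both genotypes, at -1.67 and -1.40 (limma adjusted p = 0.037 and 0.0257), against 0.882% and 2.67% of all genes. In *Pparg-cKO* the median of the 6 was -1.10, and 5 of the 6 were lower at an unadjusted p under 0.05, as were 2528 of all 20515 genes. Without either control array the genotype calls of *Krt20*, *Upk1a* and *Trp63* and the *Krt15* call in control ureters were lost, and without the female *Pparg-cKO* array that of *Krt15* in *Pparg-cKO*. Other settings ended some of these calls too. In all, the *Upk1a* call was lost under 7 of 9 settings and that of *Krt20* with purmorphamine under 4 of 9. The *Krt15* call in control ureters was lost under 5 of 10.

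Among markers of cells outside the epithelium, limma called 0 of 6 smooth muscle, 0 of 6 leukocyte and 0 of 5 fat cell genes between the genotypes with either treatment. The median difference of the fat cell genes was -1.60 with DMSO and -2.58 with purmorphamine, with 2 and 4 of 5 lower at an unadjusted p under 0.05. Of all 20515 genes, 1584 and 1822 were lower at that unadjusted p, and 1649 and 1371 higher. The smooth muscle list had 1 of 6 lower with DMSO and 0 with purmorphamine at that unadjusted p, and the leukocyte list 0 with either. Of 5 endothelial genes, *Kdr* was called higher with DMSO, by 0.88 (SE 0.16, limma adjusted p = 0.0385), a call lost under 7 of 9 other settings. Over all genes, 1.89% were called higher with DMSO. The median of the endothelial list was 0.65 with DMSO and 0.64 with purmorphamine, with 3 and 4 of 5 higher at an unadjusted p under 0.05. Purmorphamine raised *Tek* in control and *Tek* and *Cdh5* in *Pparg-cKO* ureters, lowered the leukocyte gene *Emr1* in *Pparg-cKO*, at -1.06, and was called for 0 smooth muscle or fat cell genes. Leaving out either array of the genotype concerned ended these purmorphamine calls except that of *Tek* in *Pparg-cKO*. Of all genes, limma called 0.273% higher with purmorphamine in control, and 1.76% higher and 2.67% lower in *Pparg-cKO* ureters. The summed level of fat cell markers was 17.30 to 17.67 in control and 16.09 to 16.41 in *Pparg-cKO* pools with DMSO, and in *Pparg-cKO* pools with purmorphamine it was 14.15 and 16.58. The male *Pparg-cKO* pool had the higher *Msln* and *Gabrp* levels with either treatment. Its sum of fat cell markers was the lower one only with purmorphamine.

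To find genes with the most similar levels, Pearson's r of the log2 level over the 8 pools was computed for each member against the 821 other genes whose level spanned at least 2. Such an r is a description: the 8 pools fall into 2 genotypes, and a gene that separates them and little else has a high r. *Msln* and *Gabrp* had an r of 0.996 with each other and the same order of the 8 pools (Spearman's rho of 1). *Gabrp* was the gene closest to *Msln*, and *Msln* was the second closest to *Gabrp*. For *Msln* the next were *Lrrc26* (r = 0.995), *Hepacam2* (r = 0.995), *Arhgef38* (r = 0.993) and *Rassf9* (r = 0.993). For *Gabrp* they were *Arhgef38* (r = 0.997), *1810046K07Rik* (r = 0.996), *Prm1* (r = 0.995) and *Rassf9* (r = 0.994). Spearman's rho was lower for *Hepacam2* with *Msln* (0.810) and *Prm1* with *Gabrp* (0.762) than for the others named here (0.952 to 0.976).

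Because r was taken over all 8 pools, the choice of these genes fixed a genotype difference like that of *Msln* and *Gabrp*, and their values are a description. With purmorphamine, *Lrrc26*, an auxiliary subunit gene of a potassium channel in secretory epithelia, was higher in *Pparg-cKO* by 4.74 and *Rassf9* by 2.39. *Hepacam2*, *Arhgef38*, *1810046K07Rik* and *Prm1*, a protamine gene of sperm, were not well above background in any control pool and passed the filter through the *Pparg-cKO* pools. With purmorphamine they were at least 7.41-fold, 3.99-fold, 8.69-fold and 30.3-fold higher in *Pparg-cKO*. With purmorphamine on the *Pparg-cKO* arrays, *1810046K07Rik* was at -0.87 and *Lrrc26* at -0.17.

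**Figure D5:**
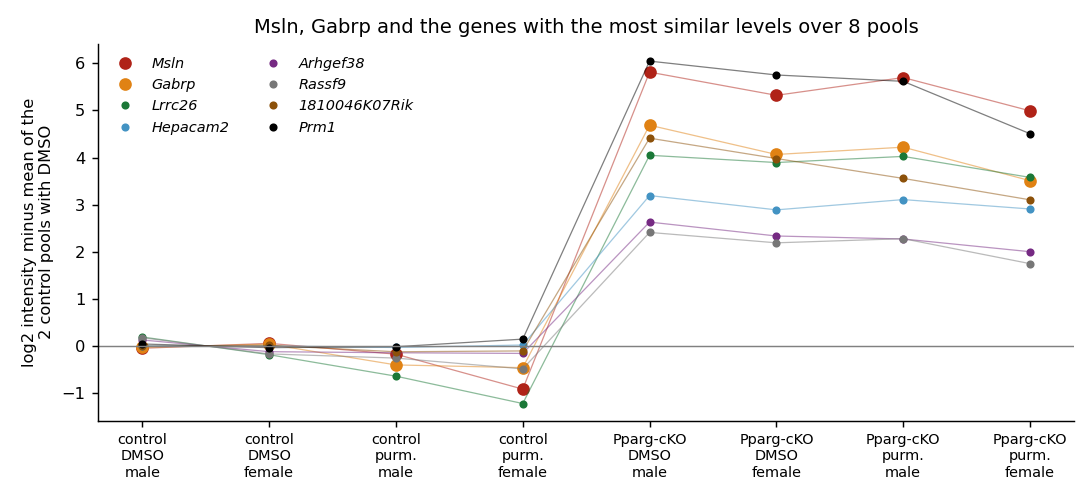
Log2 intensity of *Msln*, *Gabrp* and the 6 genes with the most similar levels, minus the mean of the 2 control pools with DMSO, in the 8 pools; large points mark *Msln* and *Gabrp*, and lines only join the points of a gene. The 8 genes lie near or under 0 in control pools, from -1.23 to 0.19, and from 1.75 to 6.05 in *Pparg-cKO* pools. *Hepacam2*, *Arhgef38*, *1810046K07Rik* and *Prm1* were not well above background in any control pool, so their points are set against background.

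The promoter of *Gabrp* is shown because PPARG acts through DNA and *Gabrp* differed between the genotypes with both treatments; that of *Msln* was not analysed here. The window is RefSeq sequence of GRCm38.p6, chr11:33578979-33579207 on the minus strand. It runs from 250 to 22 bases before the start site given for this promoter and ends just upstream of the annotated gene. Capitals mark the match to a motif that was searched.
*Gabrp* promoter: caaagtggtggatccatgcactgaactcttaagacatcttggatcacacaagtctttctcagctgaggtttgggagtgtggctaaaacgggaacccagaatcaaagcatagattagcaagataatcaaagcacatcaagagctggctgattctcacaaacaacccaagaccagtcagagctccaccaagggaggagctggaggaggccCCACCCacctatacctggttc
Motifs were searched on both strands in this window and in the same window of all 32851 promoters of the table. The direct repeat of AGGTCA with 1 base (N) between its 2 copies, a form of the PPARG response element, had 0 matches here and is held by 0.0304% of promoters. Its half-site AGGTCA, which overlaps it, had 0 matches and is held by 13% of promoters. The GLI motif GACCACCCA of SHH signaling had 0 matches (0.219% of promoters), and TATAAA had 0 (11.7%). CCACCC, the CACCC box, had 1 match and is held by 25.9% of promoters. These letters describe this window only and say nothing of where a factor binds.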

How the data were processed

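Per the file headers, the spot mean and the local background are raw scanner intensities of either dye, and the processed intensity had background subtracted and dye bias removed within the array (Feature Extraction 12.2.0.7 in the headers and 10.7.3.1 in the submitters' processing notes). The deposited log10 ratio divides the red by the green processed signal and served only to check the dye direction. The deposited score of the series table proved to be purmorphamine against DMSO as a fold change with a sign, to 1 decimal, with unstated scaling and a median of 1 in each column. Its log2 had r of 0.958 to 0.971 with the ratios used here.

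Mean intensities were corrected with normexp (offset 50), normalized by loess within and Aquantile between arrays, and averaged over the spots of a probe not marked as outliers, with limma 3.58.1 in R 4.3.3. For genotypes, a separate-channel fit was made over all 4 groups (intraspot correlation 0.0638, from 4000 probes), and for purmorphamine the log ratio within arrays was used. Tested were 27456 probes that exceeded background, in at least 50% of spots, in the 2 pools of some group, with Benjamini-Hochberg adjustment over all of them at 0.05. Each of 20515 genes is given by its brightest probe. For a gene not well above background in a group, the fold is a bound against the higher of its own level and the lowest level well above background on that array. For the criterion of the methods, processed signals were averaged geometrically, scaled to a 75th percentile of 1500 and floored at 15. The fit was tested on simulated data. Summed levels add the linear intensities of the genes tested in a list.

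*Msln*, *Gabrp* and the 13 gene lists were chosen with earlier results of these data known. Of 113 listed genes, 112 had a probe, 1 by a synonym, and 97 were tested; some GABA-A receptor subunits are not reported here. Beside both members, the text names, from each list, at most the 4 called genes with the largest change per comparison, the listed GABA-A receptor subunits above background and mesothelin relatives, the 5 genes most similar to each member, and *Pparg* and *Shh*. Genes named as examples without a call or at background were added after their values were seen. Alternatives were another background correction, offset, scaling, filter, model, the deposited table, the replicate number as a term and each array left out. The precision is limited by 2 pools per group.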

Additional observations from a re-analysis of the deposited data

How the results depend on the processing

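The genotype difference with purmorphamine kept its direction for *Msln* and *Gabrp* under every alternative run. Its p-values are not fully independent of the choice of both genes, so those that follow are no support apart from that choice. Adjusted p stayed under the threshold except with a control array left out: for *Msln* 0.058 without the female control array, and for *Gabrp* 0.0744 and 0.0848 without the male and the female one. With each array left out in turn, the log2 difference was 5.52 to 6.27 for *Msln* and 3.94 to 4.66 for *Gabrp* with purmorphamine, 5.32 to 5.81 and 4.07 to 4.69 with DMSO, and the purmorphamine difference was -0.97 to -0.12 and -0.50 to -0.37 in control and -0.33 to -0.11 and -0.56 to -0.47 in *Pparg-cKO* ureters. *Gabrp* with DMSO moved from 4.38 to 5.31 with processed signals and to 4.87 with an offset of 10, and its purmorphamine difference in control ureters from -0.43 to -1.03, to -0.66 and, in the deposited table, to -0.68; a smaller offset widens differences of low signals by construction.

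Counts of genes called moved more than the members did. With each array left out, 31 to 416 genes (740 with all arrays) were called between genotypes with DMSO, 17 to 310 (575) with purmorphamine, 0 to 525 (237) for purmorphamine in control and 145 to 1059 (910) in *Pparg-cKO* ureters; the cause was not tested. With processed signals the purmorphamine counts were 73 and 501, and with all probes tested 0 (with the filter, limma's unadjusted p under 0.05 held for 1995 higher genes and 2011 lower ones) and 289. The separate-channel fit changed the share of higher calls for purmorphamine in control ureters from 23.6% to 41.5%; the cause was not tested. By the criterion of the methods, 155 genes were higher in *Pparg-cKO* with purmorphamine at a threshold of 2-fold, and 816 to 1057 with a single pair, both members included each time.

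Same-numbered pools share sex, and those of the same treatment also the dye; whether they share animals is not stated. The differences between replicates correlated across genes between genotypes with r of -0.15 with DMSO and 0.47 with purmorphamine, and between all groups within this range. With the replicate block, 306 genes were called between genotypes with DMSO and 145 with purmorphamine. With purmorphamine, *Msln* was at 5.89 (limma adjusted p = 0.00448) and *Gabrp* at 4.30 (limma adjusted p = 0.0355). Like those of the main fit, these p-values are not fully independent of the choice of both genes. Crossed numbers, chosen after seeing the data, gave 591 calls with DMSO. Over the other named genes and their comparisons, 48 values lost their call and 298 kept their side of the threshold under other settings. With an array left out 94 lost it, 155 kept their side and 3 gained a call. None reversed. Both tallies include, in every comparison, the genes with levels most similar to *Msln* and *Gabrp*. The choice of these genes over the same pools fixed their genotype difference. Most of their purmorphamine values were not called with the main settings and stayed so. Their part of the values that kept their side therefore says little about stability, and tallies without these genes were not computed.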
